A study of Homo sapiens with 9 samples.

Results

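The 10 genes described here encode core parts of the Hippo pathway: the kinases STK3, LATS1 and LATS2, the scaffolds SAV1 and NF2, the coactivators YAP1 and WWTR1 (the gene of TAZ), and the DNA-binding factors TEAD1, TEAD3 and TEAD4. They were taken by name from the pathway, not by a rule on measured values, though earlier results of these data were known. They are 10 of the 14640 genes that could be named in at least 1 library. Poly-A selected RNA was sequenced from WM3248, an established human melanoma cell line, in 9 libraries. Cells grown in low-serum medium received DMSO only (0 µM), ARN22089 at 4 µM or ARN22089 at 6 µM and were lysed 24 h later, with 3 libraries for every dose. The compound ARN22089 was made to block CDC42-family GTPases from engaging their effectors. All groups are the same single cell line, and replicate numbers carry a date in the labels that the 3 doses share, so each number stands for 1 dated set of 3 libraries; the labels do not say more about how these cultures were kept apart. Libraries 1, 2 and 3 of a dose are named by that number, and values are listed in its order.

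The Hippo pathway limits growth by holding 2 coactivators out of the nucleus. STK3, bound to SAV1, phosphorylates LATS1 and LATS2, which NF2 (merlin) recruits to the membrane; the LATS kinases then phosphorylate YAP and TAZ, which are retained by 14-3-3 proteins or degraded. Unphosphorylated YAP and TAZ enter the nucleus and bind TEAD factors to drive genes such as CCN1 and CCN2. In melanoma, YAP and TAZ activity has been tied to the invasive, low-MITF state. Much of the regulation is by phosphorylation and location of the proteins, which transcript levels do not show.

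The RNA of all 10 members was present in all 9 libraries. LATS2 is itself a TEAD target in many cells, so the promoter windows of LATS2, of YAP1 and of WWTR1, the most abundant member, are printed here for what they hold around the start of transcription. Each runs from 250 bases before to 30 bases after a RefSeq start site (GRCh38.p14), in the direction of the gene, and capitals mark GGAATG, the core of the element that TEAD factors bind; it was searched on both strands (reverse complement CATTCC).
LATS2 promoter, chr13:21061557-21061836, minus strand: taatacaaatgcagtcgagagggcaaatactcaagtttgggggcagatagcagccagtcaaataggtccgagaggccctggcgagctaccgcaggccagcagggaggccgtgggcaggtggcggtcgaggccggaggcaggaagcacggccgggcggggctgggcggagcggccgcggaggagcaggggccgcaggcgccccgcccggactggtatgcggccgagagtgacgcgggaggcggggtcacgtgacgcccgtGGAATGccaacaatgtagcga
YAP1 promoter, chr11:102110197-102110476, plus strand: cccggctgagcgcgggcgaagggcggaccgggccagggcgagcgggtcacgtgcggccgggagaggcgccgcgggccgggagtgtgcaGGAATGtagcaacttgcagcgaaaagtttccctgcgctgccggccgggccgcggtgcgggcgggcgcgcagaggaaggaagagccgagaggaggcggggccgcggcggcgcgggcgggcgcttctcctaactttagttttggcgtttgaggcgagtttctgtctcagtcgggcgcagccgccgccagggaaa
WWTR1 promoter, chr3:149657996-149658275, minus strand: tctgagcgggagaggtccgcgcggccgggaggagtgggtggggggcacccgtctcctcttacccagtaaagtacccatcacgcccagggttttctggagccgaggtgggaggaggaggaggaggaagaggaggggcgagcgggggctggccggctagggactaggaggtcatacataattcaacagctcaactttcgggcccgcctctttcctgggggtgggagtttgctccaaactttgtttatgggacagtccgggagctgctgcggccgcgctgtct
The LATS2 window held 1 match, which began 9 bases after the start site. The YAP1 window held 1 match, at position -162 from the start site. The WWTR1 window held none, and neither did the windows found for TEAD3, LATS1, SAV1 and NF2. Of the 10 windows of the 7 members that have one, 2 held the letters, beside 4663 of 35116 windows of the same length over all genes (13.3%). Assembled transcripts began within 300 bases of the printed start site in 9 of 9 libraries for WWTR1, in 7 for LATS2 and in 3 for YAP1. In 6 libraries, including all 3 at 0 µM, an assembled YAP1 exon covered the whole printed window, so the marked letters lay within transcribed sequence there. No assembled exon covered the LATS2 match. The other RefSeq start site of WWTR1, at position 149703273 of chromosome 3, had such an end in 0 libraries. A match is a description of these letters only.

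The libraries were assembled separately, into 26506 to 30798 transcripts each, with no read counts, so the depth is known only as a ratio. The coverage behind 1 FPKM (fragments per kilobase of a transcript, relative to all mapped fragments of the library) ran from 0.8 to 1.34 times that of the middle library. All 10 markers of the melanocyte lineage were above 0 in at least 7 libraries, with SOX10 at 103 to 160 FPKM. The 3 endothelial, 4 leukocyte and 2 erythroid markers were listed at 0 in all libraries. Of the 5 keratinocyte markers, KRT5, KRT1 and DSG3 were at 0, KRT14 was above 0 in 6 libraries at up to 2.27 FPKM, and KRT10 was at 27.8 to 37.9 FPKM. The 4 fibroblast markers, led by LUM, summed to 9.61 to 31.2 FPKM. The summed level of the melanocyte markers was 415 to 1400 FPKM at 0 µM, 1250 to 2360 at 4 µM and 1390 to 2060 at 6 µM. S100B ranged widest of the 10, at 97 to 1880 FPKM, followed by DCT at 55.3 to 365, so the sum need not describe the other markers. The groups overlapped, and the part of this sum in the results was not tested. Library 3 at 0 µM stood apart in its FPKM total, which was 1061112 against 587999 to 689699 in the others.

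A gene's level is given in 2 ways. The summed value adds the FPKM of all transcripts assembled for the gene. It counts a gene more than once where a library's assembly broke it into pieces that do not overlap, as happened for LATS2 in 7 libraries, for TEAD4 in 1 and for TEAD3 in 1. The core exon value, added after seeing the data, is the mean FPKM over the exonic bases shared by all libraries that assembled the gene. It is not raised by such a break, but it does not guard against a library that missed the gene.

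No member passed the test (limma, Benjamini-Hochberg adjusted p under 0.05 over all genes tested) in any of the 3 dose comparisons, by either value. By the core value, 0.0903% of all genes passed at 4 µM, 4.14% at 6 µM and 0.041% between the doses. The members' differences leaned lower. At 6 µM against 0 µM, 8 of 10 summed values and 9 of 10 core values had a negative difference, beside 53.6% and 56.5% of all genes tested. The median log2 difference of the members was -0.33 summed and -0.39 core, beside -0.03 and -0.06 over all genes tested. The lowest unadjusted p belonged to LATS2, NF2 and WWTR1 by the summed value and to LATS2, NF2 and STK3 by the core value, all with lower values at 6 µM. At 4 µM against 0 µM, 8 of 10 summed values were negative (50.2% of all genes), but 4 of 10 after each library was rescaled to the same FPKM total. That rescaling raised the median of all genes by 0.32 on the log2 scale at 4 µM and by 0.23 at 6 µM, so differences here are read against the unscaled values, whose medians are near 0. With library medians aligned instead, 8 of 10 were negative at both doses.

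In counts, 0 members passed at 6 µM against 0 µM, where 38 of 12253 genes did (0.31% of genes tested). With an unadjusted p under 0.05, 3 members were lower and 0 higher, beside 9.69% of genes lower and 8.06% higher. The 3 libraries at 6 µM lay wholly below the 3 at 0 µM for 6 members, beside 14.1% of genes. By the core value, 6 members had a lower value at an unadjusted p under 0.05 (background 15.2%), namely LATS2, NF2, STK3, WWTR1, TEAD4 and TEAD1. The lowest core value of TEAD1, 4.93 FPKM, was in library 2 at 6 µM, where its assembly stopped short of the RefSeq end. Groups did not overlap for 5 lower members (background 18.9%) and for 1 higher member, TEAD3 (background 11.8%). By the summed value at 4 µM against 0 µM, 0 members passed (0.0735% of genes did), 2 were lower at an unadjusted p under 0.05 (background 4.61%) and 4 lay wholly below (background 8.44%). At 6 µM against 4 µM, 0 members passed (0.0245% of genes did), 0 had an unadjusted p under 0.05 by the summed value (background 2.99% lower and 1.7% higher), and 2 lay wholly below (background 7.33%). In that comparison NF2 was the 1 member lower at an unadjusted p under 0.05 by the core value (background 3.37%). Both doses were compared with the same 3 libraries at 0 µM.

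**Figure D1:**
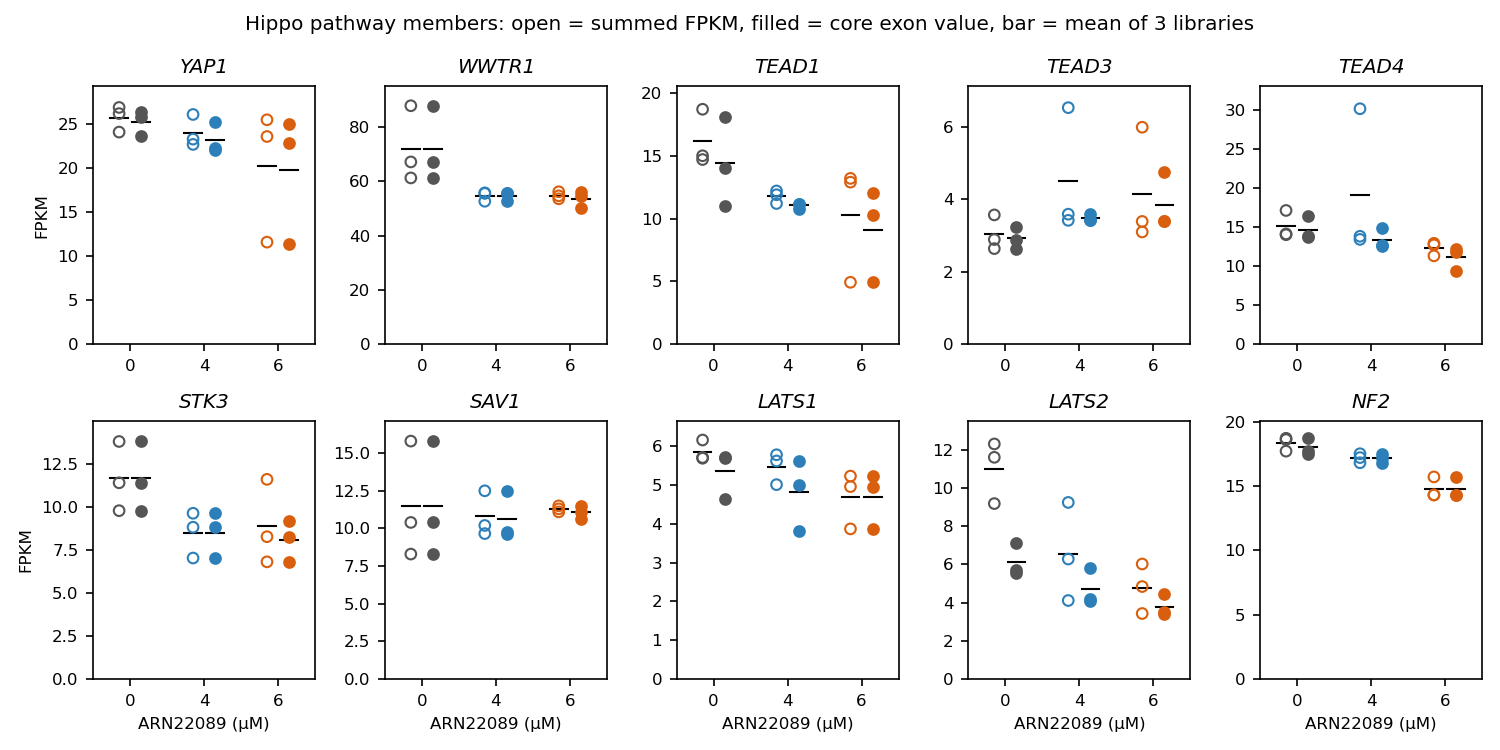
FPKM (vertical axis, from 0) of the 10 members at 0, 4 and 6 µM ARN22089; each point is 1 of 3 libraries per dose, open for the summed value and filled for the core exon value, and bars are means. WWTR1 sits below its 0 µM libraries at both doses, LATS2 is lower at 6 µM by both values, and single libraries stand apart for YAP1 and TEAD1 at 6 µM and for TEAD4 at 4 µM (summed value only).

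Among members, levels per length differed widely. WWTR1 was the most abundant at a mean of 60.6 FPKM over the 9 libraries (range 52.7 to 87.9), and its range did not overlap that of any other member. YAP1 followed at 23.3 FPKM (11.6 to 26.9), then NF2 at 16.8, TEAD4 at 15.5, TEAD1 at 12.8, SAV1 at 11.2, STK3 at 9.69, LATS2 at 7.44, LATS1 at 5.34 and TEAD3 at 3.9. From YAP1 downward, each member's range overlapped that of its neighbour in this order, and each exceeded its neighbour in 6 to 8 of the 9 libraries. YAP1 was above NF2 in 8, and their ranges met only through YAP1 in library 1 at 6 µM. WWTR1 exceeded YAP1 in all 9 libraries, by 2.02 to 4.84 times, with the highest ratio in library 1 at 6 µM, where YAP1 was low. The core values of the 3 TEAD members summed to between 19.0 and 34.7 FPKM per library.

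WWTR1 (chromosome 3, 149517235 to 149724788, minus strand) encodes TAZ, the coactivator that binds TEADs in place of or beside YAP. It was at 87.9, 67.2 and 61.3 FPKM at 0 µM, at 52.7, 55.6 and 55.8 at 4 µM, and at 56.2, 53.6 and 54.7 at 6 µM. Every treated library was below every 0 µM library, the treated libraries lay within a narrow band, and library 1 at 0 µM was the highest. The log2 difference was -0.38 ± 0.15 (SE) at 4 µM, with a limma adjusted p of 0.425, and -0.37 ± 0.15 at 6 µM, with 0.247. Without library 1 at 0 µM these were -0.23 and -0.22. Between the doses it was 0.00 (95% interval -0.34 to 0.34). An exact two-sided permutation test gave 0.1 for each dose against 0 µM, the smallest p that 3 against 3 libraries can give.

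YAP1 (chromosome 11, 102110447 to 102233424, plus strand) encodes YAP, the other coactivator. It was at 24.1, 26.9 and 26.2 FPKM at 0 µM, at 26.1, 23.3 and 22.7 at 4 µM, and at 11.6, 23.6 and 25.5 at 6 µM. Library 1 at 6 µM stood alone at the bottom; the other 8 libraries lay within 22.7 to 26.9. The log2 difference at 6 µM against 0 µM was -0.41 ± 0.26 (limma adjusted p = 0.457), and without library 1 at 6 µM it was -0.07. At 4 µM it was -0.10 ± 0.26 (limma adjusted p = 0.915).

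Over the 9 libraries, the genes whose log2 levels followed YAP1 most closely, of 6392 searched, were FURIN (Pearson r = 0.979), MPV17 (r = 0.978) and CCDC9B (r = 0.967). Each of them was also lowest in library 1 at 6 µM: FURIN was at 18.2 FPKM there against 33.6 to 45.6 elsewhere, MPV17 at 22.8 against 62.7 to 78.4, and CCDC9B at 1.67 against 12 to 16.1. For WWTR1 they were CMSS1 (r = 0.985), MAGEA4 (r = 0.972) and KANK2 (r = 0.971). All 3, like WWTR1, were highest in library 1 at 0 µM, where MAGEA4, a cancer-testis antigen, was at 498 FPKM against 232 and 103 in libraries 2 and 3. These correlations are descriptions over libraries that differ in dose and depth.

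The 3 TEAD genes did not move as one. TEAD1 (chromosome 11, 12674421 to 12944737, plus strand) was at 15, 18.7 and 14.7 FPKM at 0 µM, at 11.9, 11.2 and 12.2 at 4 µM, and at 12.9, 4.93 and 13.2 at 6 µM. All treated libraries were below those at 0 µM by the summed value, and the core values overlapped. Library 2 at 6 µM was far below the rest by the summed and core values. In that library the gene's transcripts ended 6769 bases short of the RefSeq end, and a separate unnamed transcript of 6691 bases at 17.3 FPKM lay beyond them; in the other 8 libraries they reached the RefSeq end or stopped at most 39 bases short of it. The log2 difference at 6 µM against 0 µM was -0.69 ± 0.31 summed (limma adjusted p = 0.296) and -0.66 ± 0.29 core (0.200), and -0.28 summed without library 2 at 6 µM. The genes most like TEAD1 by the summed value were PPM1F (r = 0.965), ANLN (r = 0.933) and GTSE1 (r = 0.913), all 3 lowest in that same library.

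TEAD4 (chromosome 12, 2959397 to 3040676, plus strand) was at 17.1, 14.1 and 14 FPKM at 0 µM, at 13.4, 30.1 and 13.8 at 4 µM, and at 12.9, 11.3 and 12.7 at 6 µM. The 30.1 in library 2 at 4 µM was the sum of 2 pieces, at 10.1 and 20 FPKM, that cover different exons. By the core value that library was at 14.8, and the groups at 6 and 0 µM did not overlap by either value. The log2 difference at 6 µM was -0.27 ± 0.28 summed (limma adjusted p = 0.648) and -0.37 ± 0.13 core (0.135).

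TEAD3 (chromosome 6, 35473597 to 35497079, minus strand) was the member with higher values after treatment by the core value. Its summed value was at 3.57, 2.89 and 2.64 FPKM at 0 µM, at 3.42, 3.59 and 6.53 at 4 µM, and at 3.39, 5.99 and 3.1 at 6 µM. The 6.53 was the sum of 2 pieces, at 3.54 and 2.99 FPKM, that cover different exons. The 5.99 added a transcript of 3 exons at 3.63 FPKM to 1 of 13 exons at 2.36. By the core value all 6 treated libraries lay above those at 0 µM, the lowest at 3.39 FPKM against 3.23. The log2 difference of that value at 6 µM was 0.30 ± 0.14 (limma adjusted p = 0.244), against 0.32 ± 0.29 summed (0.596) and 0.08 summed without library 2 at 6 µM. TEAD2, the fourth TEAD gene, which is no member and was named after its values were seen, was at 1.39 to 3.41 FPKM in the 9 libraries, below TEAD1 and TEAD4 in each of them.

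**Figure D2:**
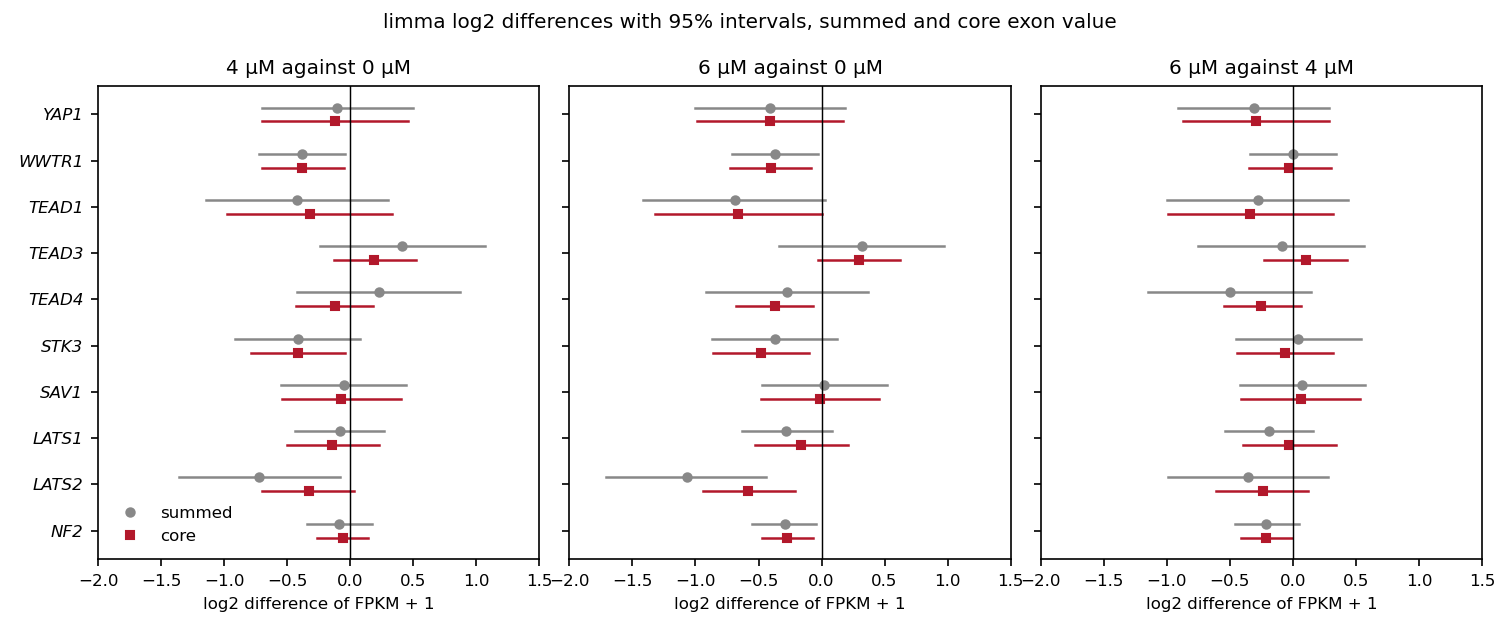
limma log2 differences (horizontal axis, log2 of FPKM + 1) with 95% intervals for the 10 members in the 3 dose comparisons, grey circles for the summed value and red squares for the core exon value. At 6 µM against 0 µM most points lie left of 0, with LATS2 the lowest summed value at -1.07, and TEAD3 lies to the right.

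LATS2 (chromosome 13, 20973036 to 21061586, minus strand), a kinase that phosphorylates YAP and TAZ, had the largest difference of the 10 members by the summed value. It was at 9.18, 11.6 and 12.3 FPKM at 0 µM, at 4.11, 6.28 and 9.24 at 4 µM, and at 6.02, 4.84 and 3.43 at 6 µM. The groups at 6 and 0 µM did not overlap, while the highest library at 4 µM exceeded the lowest at 0 µM. The log2 difference was -0.72 ± 0.28 at 4 µM (limma adjusted p = 0.42) and -1.07 ± 0.28 at 6 µM (0.11), and when any single library was left out it ran from -0.97 to -0.47 at 4 µM, the smallest without library 1 at 4 µM, and from -1.23 to -0.9 at 6 µM.

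The summed value of LATS2 includes both parts of a broken assembly. In 7 libraries LATS2 was assembled as 5′ and 3′ pieces that do not overlap, whose FPKM the summed value adds, and in library 1 at 4 µM and library 3 at 6 µM it was 1 piece. The core values were 5.57, 5.71 and 7.14 FPKM in the 0 µM libraries, 4.11, 4.18 and 5.81 with 4 µM, and 4.43, 3.51 and 3.43 with 6 µM. These values were also lower at 6 µM without overlap, with a log2 difference of -0.58 ± 0.16 (limma adjusted p = 0.0761) and a fold of 0.671, against 0.475 by the summed value.

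The values of the 2 ends of LATS2 are given apart. Transcripts that reach the 3′ end were at 6.17, 5.99 and 7.95 FPKM at 0 µM, at 4.11, 4.82 and 6.53 at 4 µM, and at 5.28, 4.17 and 3.43 at 6 µM. Transcripts with the 5′ exons were at 3.01, 5.61 and 4.3 FPKM at 0 µM, at 4.11, 1.46 and 2.71 at 4 µM, and at 0.739, 0.674 and 3.43 at 6 µM. Both 5′ values under 1 FPKM were in the libraries of 6 µM with a broken assembly, and in these the first exon, of 198 bases and next to the printed promoter, was not assembled at all. In library 1 at 4 µM and library 3 at 6 µM, 1 unbroken transcript carries the same value at both ends, 4.11 and 3.43 FPKM. The ends therefore cannot differ in these libraries. Whether the 5′ and 3′ ends differ between doses was not tested.

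**Figure D3:**
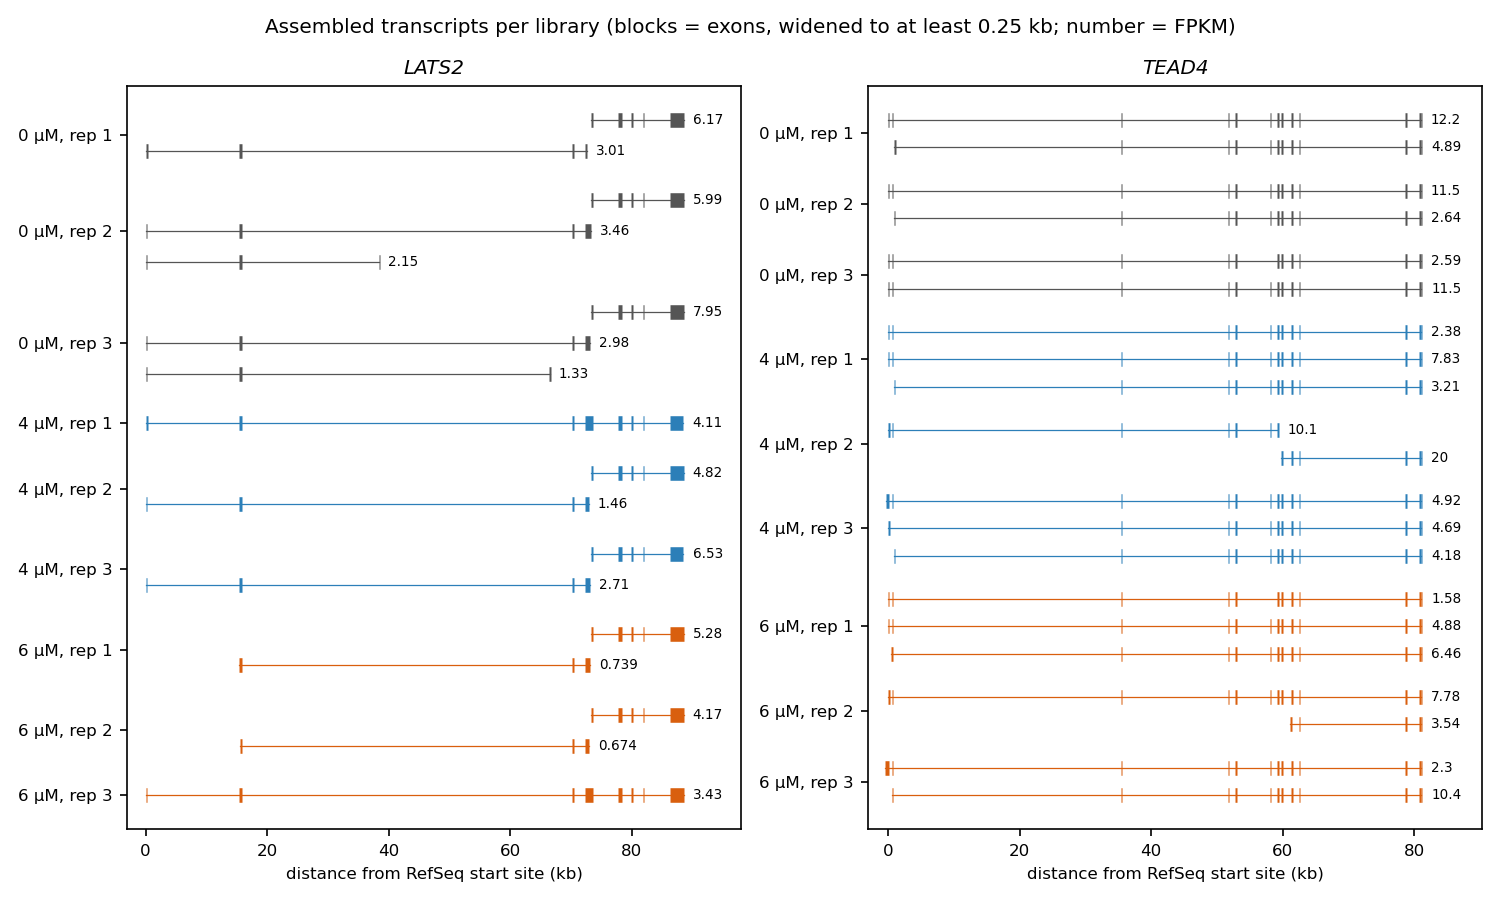
Transcripts assembled for LATS2 and TEAD4 in each of the 9 libraries, as distance from the RefSeq start site in kb (horizontal axis); blocks are exons, drawn at least 0.25 kb wide, and the number is each transcript's FPKM. LATS2 is broken into a 5′ and a 3′ piece in 7 libraries, with the 5′ piece at 0.739 and 0.674 FPKM in libraries 1 and 2 at 6 µM, and TEAD4 is broken in library 2 at 4 µM.

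The genes most like LATS2 by the summed value over the 9 libraries, of 6393 searched, were ATL3 (r = 0.948), SYDE1 (r = 0.919) and POLA1 (r = 0.913). That value adds both pieces of LATS2 in 7 libraries, so these correlations may partly follow how the gene was assembled. ATL3 was at 26.9 to 31.6 FPKM at 0 µM and at 9.49 to 15.5 at 6 µM. At 4 µM it was at 9.69 and 10.2 in libraries 1 and 2 and at 24.4 in library 3, the library in which LATS2 was also highest at that dose.

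LATS1 (chromosome 6, 149658153 to 149718101, minus strand), the paralog of LATS2, was at 6.16, 5.69 and 5.71 FPKM at 0 µM, at 5.01, 5.78 and 5.62 at 4 µM, and at 4.96, 3.87 and 5.23 at 6 µM. The summed values at 6 µM all lay below those at 0 µM, and the core values overlapped. The log2 difference at 6 µM was -0.28 ± 0.15 (limma adjusted p = 0.383), and -0.16 ± 0.16 by the core value (0.565). The summed difference was -0.17 without library 2 at 6 µM. The ratio of LATS1 to LATS2 core values was 0.8 to 0.995 at 0 µM, 0.91 to 1.22 at 4 µM and 1.1 to 1.52 at 6 µM. At 0 µM LATS1 was thus below LATS2 in all 3 libraries, and at 6 µM above it in all 3, by the core value. The summed values did not cross in this way: LATS1 was below LATS2 in all 3 libraries at 0 µM, at 0.466 to 0.671 times its level, and at 6 µM it was below in libraries 1 and 2, at 0.823 and 0.799 times, and above in library 3, at 1.52 times. The change in either ratio was not tested.

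STK3 (chromosome 8, 98343975 to 98942610, minus strand), the MST2 kinase at the top of the cascade, was at 13.8, 9.78 and 11.4 FPKM at 0 µM, at 8.82, 7.03 and 9.63 at 4 µM, and at 8.27, 6.81 and 11.6 at 6 µM. Within each dated set, both treated libraries were below the 0 µM library of that set, except library 3 at 6 µM. That library had a second assembled transcript, and its core value was lower, so that all treated core values lay below those at 0 µM. By the core value the log2 difference was -0.41 ± 0.17 at 4 µM (limma adjusted p = 0.311) and -0.48 ± 0.17 at 6 µM (0.128), and it was -0.37 ± 0.22 summed at 6 µM (0.404), or -0.22 without library 2 at 6 µM and -0.56 without library 3 at 6 µM. Blocked by replicate number, the core value at 6 µM gave -0.48 ± 0.11 (0.0563). STK4, the MST1 kinase and paralog of STK3, is no member and was named after its values were seen. It was at 15.4 to 16.7 FPKM at 0 µM, 11.2 to 16.5 at 4 µM and 9.67 to 13.9 at 6 µM, with a log2 difference of -0.40 ± 0.18 at 6 µM (limma adjusted p = 0.297).

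NF2 (chromosome 22, 29603556 to 29698600, plus strand) encodes merlin, the membrane scaffold for LATS kinases and a tumour suppressor. It varied least of the 10 members, with a coefficient of variation of 9.91% over the 9 libraries. It was at 18.6, 17.7 and 18.7 FPKM at 0 µM, at 16.8, 17.2 and 17.5 at 4 µM, and at 14.3, 14.3 and 15.7 at 6 µM. The 3 doses did not overlap at any step, and the spread within a dose was small. The log2 difference was -0.09 ± 0.11 at 4 µM (limma adjusted p = 0.787), -0.29 ± 0.11 at 6 µM (0.226) and -0.21 ± 0.11 between the doses (0.953).

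SAV1 (chromosome 14, 50633580 to 50668306, minus strand), the scaffold that joins STK3 to LATS, gave the smallest difference at 6 µM. It was at 15.8, 10.4 and 8.3 FPKM at 0 µM, at 10.2, 9.66 and 12.5 at 4 µM, and at 11.3, 11.1 and 11.5 at 6 µM. The groups overlapped, with a log2 difference at 6 µM of 0.02 (95% interval -0.47 to 0.52; limma adjusted p = 0.972). MOB1A and MOB1B, the cofactors of the LATS kinases, are no members and were named after their values were seen. Their log2 differences at 6 µM were -0.06 ± 0.16 (limma adjusted p = 0.88) and 0.20 ± 0.21 (0.659).

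The assemblies also show which forms of the proteins the transcripts could encode. YAP1 has an exon of 114 bases (chromosome 11, 102186018 to 102186131) that encodes the second WW domain, with which YAP binds partners such as LATS and angiomotins. Transcripts that skip it were assembled in 0 of 3 libraries at 0 µM, in 3 of 3 at 4 µM and in 1 of 3 at 6 µM. Of the FPKM of transcripts with or without the 114 bases, the longer form below included, they held 15.8%, 25.7% and 11.4% at 4 µM, and 12.7% in library 2 at 6 µM. A form of this exon that is longer at its 3′ side, of 120 bases, was assembled in all 3 libraries at 0 µM, in 1 at 4 µM and in 2 at 6 µM. A skipping transcript that was not assembled may still be present, so these are counts of assemblies, and no test was made.

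A second YAP1 exon, of 48 bases (chromosome 11, 102209517 to 102209564), lies in the transactivation region. It was absent from 46.4% to 61.3% of YAP1 FPKM at 0 µM, from 54.7% to 65% at 4 µM and from 54.3% to 60.5% at 6 µM, and the doses overlapped. NF2 has an exon of 45 bases (chromosome 22, 29683020 to 29683064), whose inclusion gives the merlin isoform with an alternative C-terminal end. Both forms were assembled in 2 of 3 libraries at 0 µM, in 3 of 3 at 4 µM and in 1 of 3 at 6 µM. Of the other 6 µM libraries, library 1 held only the form with the exon and library 2 only the form without it, so the share ran from 0% to 100% at that dose.

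**Figure D4:**
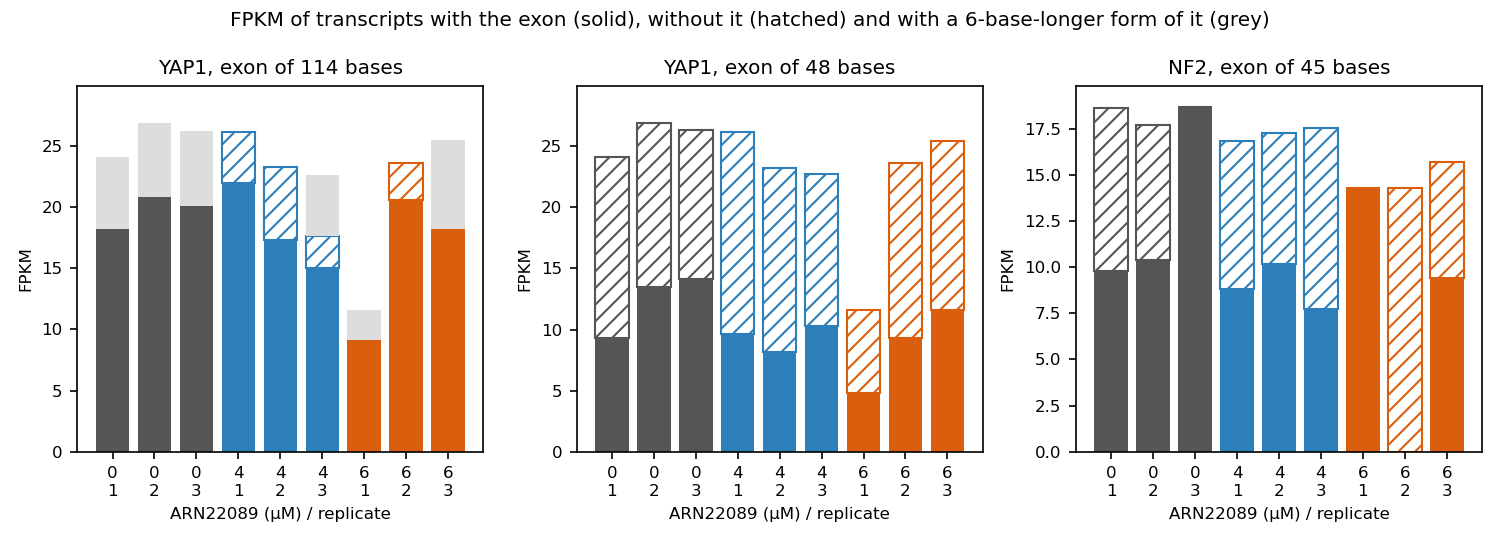
FPKM (vertical axis, from 0) of YAP1 transcripts with and without the exons of 114 and 48 bases and of NF2 transcripts with and without the exon of 45 bases, 1 bar for each library by dose and replicate. Solid is with the exon, hatched without, and grey is the longer form of the YAP1 exon of 114 bases; hatched parts of that exon appear in the 3 libraries at 4 µM and in library 2 at 6 µM.

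Around the core cassette, 5 lists of pathway genes were read from the same fit. Of the 22 tested upstream activators and parallel kinases (26 listed), 0 passed at 4 or 6 µM by the summed value, where 0.0735% and 0.31% of all genes passed. By the core value 1 passed as lower at 6 µM, RASSF8, where 4.14% of all genes passed. The median log2 difference of this list at 6 µM was -0.05 summed, beside -0.03 over all genes tested. RASSF8, a Ras-association scaffold of cell junctions, was at 29.6, 29.1 and 25.7 FPKM at 0 µM, at 12.9, 10.8 and 17.2 at 4 µM, and at 11.8, 11.0 and 13.6 at 6 µM. The treated libraries all lay far below those at 0 µM, with a log2 difference at 6 µM of -1.15 ± 0.18 that missed the threshold summed (limma adjusted p = 0.0515) and passed by the core value (-1.13 ± 0.17, 0.0274). In libraries 2 and 3 at 0 µM the long 3′ part of RASSF8 was not assembled, and the consensus exon value, which takes bases assembled in at least 50% of libraries and so counts that part, gave 0.09 (limma adjusted p = 0.931). MAP4K4, a kinase that can phosphorylate LATS in place of STK3, had a log2 difference at 6 µM of -0.70 ± 0.29 summed (limma adjusted p = 0.266). Its core value gave -0.78 ± 0.21 (0.0699).

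Of the 20 genes that restrain the kinases, such as subunits of the STRIPAK phosphatase complex and LIM proteins, 0 passed by the summed or core value. At 6 µM 0.31% and 4.14% of all genes passed by these values. The median of the list at 6 µM was -0.19 summed and -0.15 core, beside -0.03 and -0.06 over all genes tested. By the summed value 13 differences were negative and 7 positive, beside 53.6% negative over all genes. STRN and STRIP2, both STRIPAK subunits, had log2 differences of -0.73 ± 0.25 and -0.72 ± 0.26 summed (limma adjusted p = 0.187 and 0.217). By the core value they were apart, at -0.79 ± 0.20 and -0.38 ± 0.18 (0.0585 and 0.222). The LIM proteins LIMD1 and AJUBA, which bind LATS, had -0.47 ± 0.20 and -0.45 ± 0.18 summed (0.266 and 0.245). Their core values gave -0.47 ± 0.17 and -0.45 ± 0.14 (0.142 and 0.108). By the consensus exon value AJUBA was at -0.59 and passed (limma adjusted p = 0.0356).

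Genes whose products hold YAP and TAZ at junctions or in the cytoplasm had a median of -0.22 at 6 µM summed and -0.31 core. Of 21 tested (25 listed), 0 passed by the summed value, where 0.31% of all genes passed. By the core value 3 passed as lower, where 4.14% of all genes passed: the 3 angiomotins. AMOT was at 7.05, 8.31 and 7.6 FPKM at 0 µM, at 3.49, 5.09 and 9.42 at 4 µM, and at 2.63, 3.76 and 3.71 at 6 µM; its log2 difference at 6 µM was -0.99 ± 0.29 summed (limma adjusted p = 0.143) and -1.0 ± 0.17 core (0.0299). AMOTL2, which is listed as a target gene too, had -0.86 ± 0.25 summed (limma adjusted p = 0.14) and -1.03 ± 0.21 core (0.0408, and 0.0552 blocked by replicate number). AMOTL1 had -0.49 ± 0.11 summed (limma adjusted p = 0.0887) and -0.48 ± 0.09 core (0.0361), with -0.50 ± 0.11 summed at 4 µM (0.272). Library 1 at 0 µM lacked the 3′ end of AMOTL1, and the consensus exon value at 6 µM was 0.00 (limma adjusted p = 0.996). YWHAQ, a 14-3-3 protein, had -0.41 ± 0.14 (0.207).

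Of the 7 tested nuclear partners (11 listed), 0 passed by the summed value, where 0.31% of all genes passed at 6 µM. By the core value 1 passed as higher at 6 µM, where 4.14% of all genes passed. The median at 6 µM was 0.06 summed. RUNX2, a transcription factor that YAP can bind, was at 4.89, 7.17 and 7.73 FPKM at 0 µM, at 13.1, 14.5 and 13.1 at 4 µM, and at 13.7, 11.2 and 10.3 at 6 µM. All treated libraries lay above those at 0 µM, with a log2 difference at 6 µM of 0.76 ± 0.18 summed (limma adjusted p = 0.0961) and 0.98 ± 0.21 core (0.0461), but 0.31 by the consensus exon value (0.268). SMAD7, an inhibitor of TGF-beta signalling, had 0.79 ± 0.24 (0.154), and ARID1A, a chromatin remodelling subunit that binds YAP, had -0.72 ± 0.18 summed (0.103) and -0.33 ± 0.09 core (0.0718). VGLL4, which competes with YAP for TEADs and was named after its values were seen, had -0.11 ± 0.14 (limma adjusted p = 0.709).

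Genes known to be driven by YAP, TAZ and TEAD, of which LATS2 is 1, had a median of -0.59 at 6 µM and -0.41 at 4 µM, with 18 and 16 of 21 tested negative (22 listed), beside 53.6% and 50.2% of all genes. CCN1 passed at 6 µM, at -1.86 ± 0.27 (limma adjusted p = 0.0489; 0.0659 with a replicate block), and was at 32.3, 28.0 and 21.1 FPKM at 0 µM against 4.11, 7.93 and 8.76 at 6 µM. Its adjusted p ran from 0.024 to 0.12 over 20 alternatives and stayed under the threshold in 9; leaving out any library other than library 3 at 6 µM gave 0.0577 to 0.114. By the core value 5 targets passed as lower, where 4.14% of all genes passed: CCN1, AMOTL2, AXL, ANKRD1 and CRIM1. AXL, a receptor kinase of the invasive melanoma state, had -1.24 ± 0.26 summed (limma adjusted p = 0.07) and -1.16 ± 0.21 core (0.0333). ANKRD1, a nuclear ankyrin-repeat protein, and CRIM1, a transmembrane protein that binds BMPs, had core differences of -1.52 ± 0.30 (0.0388) and -1.12 ± 0.25 (0.0468), with ANKRD1 listed at 0 in 2 of the 3 libraries at 6 µM. CCN2, a secreted matricellular protein, had -2.15 ± 0.52 summed (limma adjusted p = 0.0928) and -2.15 ± 0.51 core (0.0536). Blocked by replicate number it had 0.0583 summed and 0.0261 core, and by the consensus exon value it passed without the block (0.0394) and with it (0.0206). FOXF2, a forkhead transcription factor, went the other way, at 4.16, 4.64 and 5.39 FPKM at 0 µM against 8.27, 14.2 and 8.21 at 6 µM (0.93 ± 0.23 summed, limma adjusted p = 0.102; 0.052 core). ANKRD1, CRIM1 and FOXF2 were named after their values were seen. FNDC3B had -1.21 ± 0.24 summed but -0.39 ± 0.16 core (limma adjusted p = 0.0674 and 0.167). CCN1 was named because it passed, and CCN2 and AXL for the size of their difference, so their size beside the members follows from that choice. The whole target list had a median of -0.59 summed at 6 µM, beside -0.33 for the 10 members. The lowest members by the summed value were LATS2, itself a listed target, at -1.07 and TEAD1 at -0.69. By the consensus exon value TEAD1 was at -0.25. The difference between the target and the member values was not tested.

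**Figure D5:**
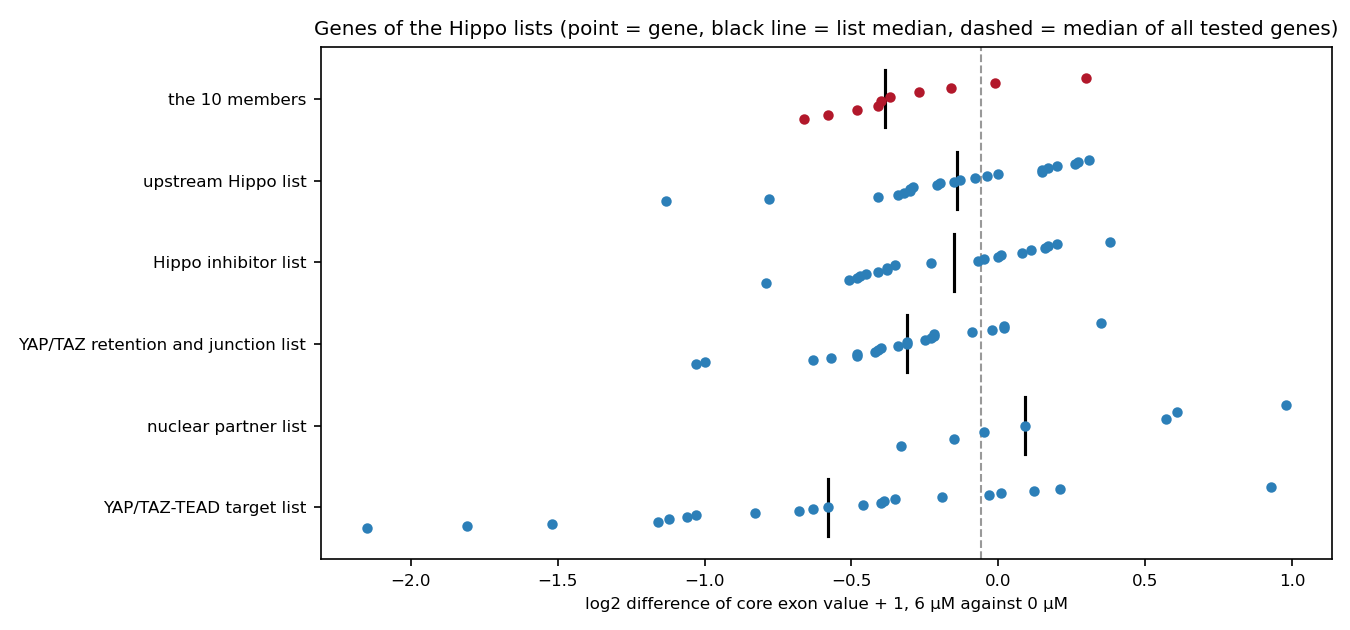
log2 differences of the core exon value at 6 µM against 0 µM (horizontal axis) for the 10 members (red) and the tested genes of the 5 pathway lists (blue); each point is a gene, black lines are medians and the dashed line is the median of all tested genes at -0.06. The target list reaches farthest to the left, and the medians of the members and of the retention and junction list, at -0.39 and -0.31, also lie left of the dashed line. Those of the upstream and inhibitor lists, at -0.14 and -0.15, lie left of it too, and that of the nuclear partners, at 0.09, lies right.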

How the data were processed

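RNA was measured in 9 libraries of the cell line WM3248, grouped by the treatment label. Each library has its own deposited assembly, in which Cufflinks 2.2.1, run by the authors, gave every transcript an FPKM, a coverage value and confidence bounds as text in the attribute column (unit other). Per the submitters' processing notes, reads were handled with Trimmomatic, TopHat2 2.1, Bowtie2 2.2.7, SAMtools 1.9 and R 4.0.3. These notes name GRCh37 and hg19 as the build, but 352 transcripts sit on unplaced scaffolds found by name in GRCh38 alone, so all coordinates here are GRCh38. Separate assembly can miss, cut or break a gene, which moves its FPKM, and depth is known only as the ratio of coverage to FPKM.

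Transcripts were named by same-strand overlap with RefSeq gene spans and by intron lengths shared with GENCODE models, which named 95.8% of spliced transcripts. The design foresaw FPKM of named genes, and this naming step was needed because the assemblies carry no names. The summed FPKM was tested with limma 3.58.1 (R 4.3.3, trend) on log2(FPKM + 1) over the 12253 genes that averaged 1 FPKM or more, in 1 fit of all 9 libraries with 6 residual degrees of freedom; fold changes are on that scale, which understates changes of low genes. Python 3.11.15 with pandas 2.3.3 was used elsewhere. The test was checked on simulated data.

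The members, gene lists and tests were chosen with earlier results of these data known. Genes named from a list passed an adjusted p of 0.05 in any comparison or were among the 4 largest log2 differences at 6 µM with an unadjusted p under 0.05 and a value above 0 in at least 8 libraries; the 3 most correlated genes were named for each of 4 members. Replicate numbers pair with dates in the labels; same-numbered libraries of different doses had deviations from their group means that correlated at -0.0169 to 0.124 over 9 pairs, against -0.0937 to 0.0161 over 18 pairs with different numbers. The labels name no separate cultures, so p-values reflect the spread of these libraries, which may be technical. RefSeq promoter windows were found for 7 of 10 members. Alternatives were the consensus exon value (the mean FPKM over bases assembled in at least 50% of libraries), the core exon value, scaling, pseudocount, filters, the block and leaving out each library.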

Additional observations from a re-analysis of the deposited data

How the results depend on the processing

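None of the 30 member differences passed the threshold under any of 597 alternative values, the lowest adjusted p being 0.0531 (STK3 at 6 µM, replicate block with the consensus exon value); 552 kept their direction and 45 turned it. Scaling to a fixed FPKM total gave log2 differences at 4 µM against 0 µM of 0.25 for YAP1, 0.22 for LATS1, 0.25 for NF2 and 0.27 for SAV1, 0.01 for TEAD4 at 6 µM against 0 µM, and -0.05 for WWTR1 and -0.01 for STK3 at 6 µM against 4 µM. With the consensus exon value, alone and with the replicate block, TEAD4 was at -0.1 and SAV1 at 0.08 at 4 µM against 0 µM, and WWTR1 at -0.03, TEAD1 at 0.13, TEAD3 at 0.09, STK3 at -0.07 and NF2 at 0.23 at 6 µM against 4 µM. With the core exon value, alone and with the block, TEAD4 was at -0.12 at 4 µM and SAV1 at -0.01 at 6 µM against 0 µM, and WWTR1 at -0.03, TEAD3 at 0.1 and STK3 at -0.06 between the doses. In library 3 at 4 µM, NF2 ended 3789 bases short of the RefSeq end. RASSF8 at 6 µM against 0 µM was at 0.09 with the consensus value, alone and with the block.

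Leaving out 1 library turned the direction for YAP1 (-0.5 to 0.03), WWTR1 (-0.02 to 0.02), TEAD1 (-0.49 to 0.14), TEAD3 (-0.33 to 0.15) and STK3 (-0.15 to 0.2) at 6 µM against 4 µM, for TEAD4 (-0.13 to 0.42) and SAV1 (-0.24 to 0.18) at 4 µM against 0 µM, and for SAV1 (-0.17 to 0.26) at 6 µM against 0 µM.

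Over all genes, 9, 38 and 3 passed at 4 µM, at 6 µM and between the doses. The replicate block, whose numbers pair by date, gave 2, 4 and 1, so CCN1 no longer passed (adjusted p = 0.0659), nor did AMOTL2 by the core value; by that value CCN1 still passed (0.0284) and CCN2 came to pass (0.0536 without the block, 0.0261 with it). The block changed no call of a member. At 6 µM the count was 528 with the consensus value, 504 with the core value, 684 and 670 with the block as well, 15 with the fixed total, 77 with a mean of at least 5 FPKM and 19 with only the 2 doses compared. Between the doses it was 6 with the consensus value, 5 with the core value, 5 without a filter and 5 with the block and consensus value. Without 1 library the counts ran from 7 to 24, 16 to 73 and 2 to 14.

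List medians at 4 µM, at 6 µM and between the doses under the fixed total were 0.31, 0.24 and -0.09 for the upstream list, 0.35, 0.09 and -0.13 for the inhibitors and 0.15, 0.01 and -0.16 for the retention list. They were 0.68 and 0.27 for nuclear partners and -0.07 and -0.3 for targets at 4 and 6 µM. Median scaling gave -0.01 for the upstream list between the doses, the consensus value -0.12 for the inhibitors between the doses, and for nuclear partners at 4 µM the consensus and core values gave 0.03 and 0.08. Without 1 library, medians between the doses ran from -0.08 to 0.01 (upstream), -0.18 to -0.05 (inhibitors), -0.18 to -0.03 (retention) and -0.28 to -0.06 (targets); inhibitors ran from -0.1 to 0.07 at 4 µM and -0.27 to 0.01 at 6 µM, and nuclear partners from 0.2 to 0.4 at 4 µM. Apart from the fixed total, which shifts all genes, and the pieces described for LATS2, TEAD4 and TEAD3, the cause was not tested. Without read counts, no interval for counting error can be given.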

Other observations

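The far ends of the members' transcripts differed between libraries. SAV1 was assembled with its last exon, as 5 exons, in 2 of 3 libraries at 0 µM and in 3 of 3 at 4 µM, and without it, as 4 exons, in 3 of 3 at 6 µM and in library 1 at 0 µM. In each of the 4 libraries without it, a separate unnamed transcript of 1513 to 1997 bases, at 9.21 to 15.3 FPKM, lay downstream within the gene, so bases of the 3′ end were still assembled there. The SAV1 core value, which covers 1245 bases that all libraries share, was at 15.8 FPKM in library 1 at 0 µM. At 6 µM it was at 10.6, 11.1 and 11.5 FPKM, and over all 9 libraries it ran from 8.3 to 15.8. YAP1 transcripts reached the RefSeq end, or stopped at most 25 bases short of it, in library 2 at 4 µM and in libraries 2 and 3 at 6 µM, and stopped 3581 to 3686 bases short of it in the other 6 libraries, including all 3 at 0 µM. These ends are counts of assemblies, with no test.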
